A study of Homo sapiens with 8 samples.

Results

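Subtelomeric origins are the replication origins that lie in the outermost parts of the chromosomes. They were chosen by position alone: an origin counted as subtelomeric when its midpoint lay within 2 Mb of either end of chromosomes 1 to 22 (hg38), without the short-arm ends of chromosomes 13, 14, 15, 21, and 22, which leaves 39 ends. By this rule, 3698 of 42162 origins were subtelomeric in the table of WT and ORC1Δ cells, 3933 of 44174 in that of WT and ORC2Δ cells, and 3948 of 46467 in that of WT and ORC5Δ cells. The origins were mapped by SNS-seq, which sequences the short nascent strands that mark where replication has started, in HCT116 p53-/- cells, an epithelial colon cancer line without p53. WT here means this parent line, and the ORC1Δ, ORC2Δ, and ORC5Δ lines were made from it with CRISPR–Cas9. All 4 lines thus lack p53, and in each knockout line 1 further gene was targeted, ORC1, ORC2, or ORC5. The authors cite another group's report of a trace of truncated ORC2 in the ORC2Δ cells, which they did not detect themselves. There were 2 biological replicates per line and 8 samples, but each table holds 1 merged count per line, which leaves the spread between replicates unknown, and no difference between lines was tested. The labels do not say how many clones each line stands for. Total counts per line and table ran from 6416892 to 8523971 reads, and the median origin had 110 to 137 reads.

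The origin recognition complex, ORC, is the assembly of subunits that in textbook models binds origins and loads the MCM2–7 helicase there before S phase. Subtelomeres lie just inside the telomeres, the repeats that cap the chromosomes. They are known for blocks of sequence shared between chromosome ends, for GC-rich and gene-rich stretches at many ends, and for arrays of short tandem repeats, the minisatellites.

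The stretches below are the sequences the results turn on, read 5′ to 3′ on the forward strand of hg38, 200 bases each. The first set holds the 3 subtelomeric origins that ranked highest by their smallest increase over the knockout lines. Capitals mark the first repeat unit in the 4p and 17p stretches and CG dinucleotides in the 1p stretch.
4p origin, chr4:555340-555539: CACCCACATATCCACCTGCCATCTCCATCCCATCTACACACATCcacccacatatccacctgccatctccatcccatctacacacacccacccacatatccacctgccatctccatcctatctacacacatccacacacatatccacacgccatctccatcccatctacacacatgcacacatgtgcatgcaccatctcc
17p origin, chr17:993446-993645: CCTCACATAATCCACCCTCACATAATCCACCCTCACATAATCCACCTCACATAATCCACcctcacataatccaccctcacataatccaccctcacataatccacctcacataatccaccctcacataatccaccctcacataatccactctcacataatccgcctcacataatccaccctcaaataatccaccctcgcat
1p origin, chr1:1366042-1366241: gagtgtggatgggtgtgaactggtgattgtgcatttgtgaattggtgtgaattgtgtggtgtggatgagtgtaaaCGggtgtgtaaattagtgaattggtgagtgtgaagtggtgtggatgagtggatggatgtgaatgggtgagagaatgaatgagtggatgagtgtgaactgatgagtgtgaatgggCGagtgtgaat
The 4p stretch repeats with a period of 44 bases at 96% identity, and the 17p stretch with a period of 59 bases at 99%. Units were marked at the period of best identity, and the 59 bases marked at 17p are themselves made of shorter, near-identical copies. The 1p origin has no such array, its best match being 68% at 62 bases, and the stretch shown holds 2 CG dinucleotides. In all of them G and C are split unequally between the strands: C outnumbers G on the strand shown at 4p and 17p, and G outnumbers C at 1p.

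The second set holds origins of the opposite behaviour and one of high level. Capitals mark CG dinucleotides in WNT5B and the first repeat unit in ADARB2 and PTPRN2.
WNT5B intron, 12p, lower in the knockout lines, chr12:1529961-1530160: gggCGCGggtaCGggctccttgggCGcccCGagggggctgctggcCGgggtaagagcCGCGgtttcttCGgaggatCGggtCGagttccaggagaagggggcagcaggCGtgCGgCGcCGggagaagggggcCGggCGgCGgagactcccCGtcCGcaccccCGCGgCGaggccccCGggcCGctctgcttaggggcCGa
ADARB2 intron, 10p, lower in the knockout lines, chr10:1478621-1478820: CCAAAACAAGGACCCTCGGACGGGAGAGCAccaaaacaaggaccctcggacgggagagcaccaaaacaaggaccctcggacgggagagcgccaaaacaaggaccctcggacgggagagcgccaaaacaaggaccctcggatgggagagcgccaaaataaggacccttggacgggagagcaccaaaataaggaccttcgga
PTPRN2 intron, 7q, most WT reads per kb, chr7:158147097-158147296: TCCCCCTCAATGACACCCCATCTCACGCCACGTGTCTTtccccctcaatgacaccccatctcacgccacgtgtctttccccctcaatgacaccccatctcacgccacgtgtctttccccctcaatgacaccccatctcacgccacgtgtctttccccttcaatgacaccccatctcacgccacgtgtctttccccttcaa
The WNT5B stretch holds 26 CG dinucleotides. The ADARB2 stretch repeats every 30 bases and the PTPRN2 stretch every 38 bases.

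The first question was where the subtelomeric origins lie. The WT list held 3130 subtelomeric origins of 30197 (10.4%), in windows that make up 2.76% of the sequence of chromosomes 1 to 22 outside assembly gaps. This is 41.1 origins per Mb, against 9.99 per Mb in the rest of these chromosomes, a ratio of 4.11 (95% interval 3.96 to 4.27, counting error only). The ORC1Δ list had 40.1 origins per Mb in the windows and 11.3 elsewhere, a ratio of 3.56 (3.43 to 3.70). For ORC2Δ cells these values were 46.9 and 12.6, with a ratio of 3.72 (3.59 to 3.85), and for ORC5Δ cells 48.6 and 13.9, with a ratio of 3.50 (3.38 to 3.62). Each knockout list was thus denser than WT away from the ends, and its ratio was lower. The density was higher than in the rest of the same chromosome at 34 of 39 ends in every list. In WT cells, the exceptions were 3p, 9p, 18p, 19q, and 1q.

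Ends differed widely from each other. In WT cells, 19p had 93.8 origins per Mb (182 origins), 7p had 76.5, and 11p had 74.7, while 3p had 2.01 (4 origins), 18p had 4.02, and 9p had 5.03. Density was highest neither at the very end nor at the inner edge of the window. It was 19.95 origins per Mb in the first 100 kb of WT cells, 44.7 from 500 kb to 1 Mb, and 28.5 from 2 to 5 Mb, and each knockout list had the same order of these values.

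**Figure D1:**
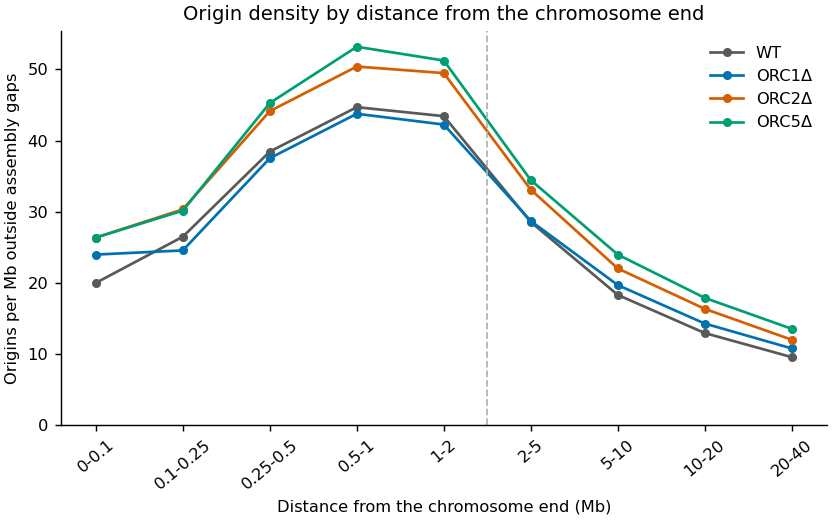
Origins per Mb outside assembly gaps (y axis) by distance from the chromosome end in Mb (x axis), 1 point per line and distance class, with the dashed line at 2 Mb. All 4 lists peak between 0.5 and 1 Mb, where WT cells have 44.7 origins per Mb, and fall further inward.

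Subtelomeric origins also differed in sequence from those of the rest of chromosomes 1 to 22. In the ORC1Δ table, their median GC content was 60.9% (interquartile range 54.3% to 65.9%), against 51.9% (46.8% to 57.8%). They were wider, with a median of 608 bp against 528 bp. They had more WT reads, with a median of 157 against 111, or 41.8 against 33.5 RPM per kb (RPM, counts scaled by the line's total in that table). A tandem repeat with a period of 5 to 100 bases, found as 80% identity over 100 positions, was present in 1470 of them (39.8%, 95% Wilson interval 38.2% to 41.3%) against 9.83% of the rest. The share was highest from 500 kb to 1 Mb, at 44.9%, and fell inward to 24.8% at 2 to 5 Mb and 7.05% beyond 10 Mb, while the first 100 kb had 31.4%. By contrast, the share in introns of protein-coding genes was much alike, at 44.1% of subtelomeric and 43.6% of the other origins. Exons were overlapped by 17.6% (16.4% to 18.8%) and 14.2% (13.9% to 14.6%), and 38.3% and 42.2% lay outside such genes.

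A run of 4 or more groups of at least 3 G, with 1 to 7 bases between them (either strand), the pattern that can fold into a G-quadruplex, was found in 60.3% of subtelomeric origins and in 48.9% of all origins of this table. The search used these letters alone, and a match is not evidence that such a structure forms.

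The next question was how the use of subtelomeric origins differed between each knockout line and WT. In ORC1Δ cells, their median log2 fold over WT was -0.12 (95% interval -0.14 to -0.11, from order statistics, for the choice of origins only), against -0.0027 in the rest of chromosomes 1 to 22. This direction turned once the log2 fold was corrected for GC content by a running median over 1001 origins: the median was then 0.049 in subtelomeric origins (0.036 to 0.061) and -0.0050 in the rest. In ORC2Δ cells, the median was -0.03 (-0.04 to -0.02) against -0.04 in the rest, and 0.030 against -0.0050 after GC correction. In ORC5Δ cells, it was -0.02 (-0.02 to -0.0064) against -0.0028, and 0.012 against -0.0019 after GC correction. The part of GC content in these differences was not tested.

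Calls were made at 1.5-fold in RPM. In ORC1Δ cells, 307 of 3698 subtelomeric origins were up (8.30%), against 7.04% of all origins of the table, and 301 were down (8.14%), against 3.95%. After GC correction, 305 were up (8.25%, against 4.72% of all origins) and 138 were down (3.73%, against 2.85%). In ORC2Δ cells, 284 were up (7.22%, against 4.66% of all origins) and 200 down (5.09%, against 3.58%), and after GC correction 306 were up (7.78%, against 4.97%) and 166 down (4.22%, against 2.97%). In ORC5Δ cells, 128 were up (3.24%, against 2.08% of all origins) and 26 down (0.659%, against 0.68%), and after GC correction 120 were up (3.04%, against 1.97%) and 26 down (0.659%, against 0.71%). The share of subtelomeric origins up after GC correction thus lay above that of all origins in each table, while the share down was near it in ORC5Δ cells. In the neighbouring 2 to 10 Mb, the shares up were 8.19%, 5.93%, and 2.79% in ORC1Δ, ORC2Δ, and ORC5Δ cells. After GC correction they were 6.58%, 6.52%, and 2.64%. The 3 tables share the WT counts, so they are not independent of each other.

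Between origins of similar GC content, the difference was clearest where GC was low. From 45% to 50% GC, 26.6% of 297 subtelomeric origins were up in ORC1Δ cells against 10.5% of the rest. For ORC2Δ cells the shares were 22.6% and 7.24%, and for ORC5Δ cells 13.5% and 3.22%. From 65% to 70% GC, they were at most 0.516% in either set and any line.

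Many, but not all, of the subtelomeric origins with more reads in the knockout lines had an unequal split of G and C between the strands. GC skew is the excess of G over C on one strand divided by their sum. Its absolute value was at least 0.6 in 400 subtelomeric origins of the ORC1Δ table (10.8%, against 6.35% of the rest). In the neighbouring 2 to 10 Mb the share was near that of the ends, at 10.0% (9.43% to 10.7%). Of the 400 subtelomeric origins, 196 were up in ORC1Δ cells, or 49.0% (95% Wilson interval 44.1% to 53.9%), with a median log2 fold of 0.57 (0.50 to 0.67). Of the 3298 others, 111 were up, or 3.37% (2.80% to 4.04%), with a median of -0.16. Skewed origins were thus 63.8% of the subtelomeric origins up in this line, and the other 36.2% had a lower skew. Of the skewed subtelomeric origins, 47.1% were up in ORC2Δ and 25.7% in ORC5Δ cells, and of the others 2.66% and 1.06%. Their median GC content was 52.9% in the ORC1Δ table, against 61.8% in the others, and after GC correction 47.0% of them were still up in ORC1Δ cells. Their median WT count there was 147 reads, against 158. Origins absent from the WT list are among those counted, having entered through the knockout line. Whether skew has a part in the change was not tested.

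The same split was present away from the ends. In the rest of chromosomes 1 to 22, 48.9% of skewed origins were up in ORC1Δ cells, and for ORC2Δ and ORC5Δ cells the shares were 38.9% and 23.5%. For ORC1Δ and ORC5Δ cells these shares lay within the intervals of the subtelomeric origins, and for ORC2Δ cells below (42.3% to 52.0% at the ends). After GC correction, the share of skewed origins up was higher at the ends than in the rest in each table: 47.0% and 38.8% for ORC1Δ, 49.6% and 40.2% for ORC2Δ, and 24.3% and 22.3% for ORC5Δ cells. No intervals were computed for these corrected shares. The neighbouring 2 to 10 Mb were not lower throughout. There, without correction, 55.4% of skewed origins with a tandem repeat and 56.8% of those without were up in ORC1Δ cells. Both lay above the 49.0% at the ends. For ORC2Δ cells these shares were 44.6% and 41.5%, below the 47.1% at the ends. For ORC5Δ cells they were 27.6% and 23.7%, on either side of the 25.7% at the ends. The strand made no visible difference. In 196 of the 400 skewed subtelomeric origins, the G-rich strand ran toward the chromosome end, as in the telomere, and 94 of these were up in ORC1Δ cells, while 102 of the 204 with the opposite orientation were up.

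**Figure D2:**
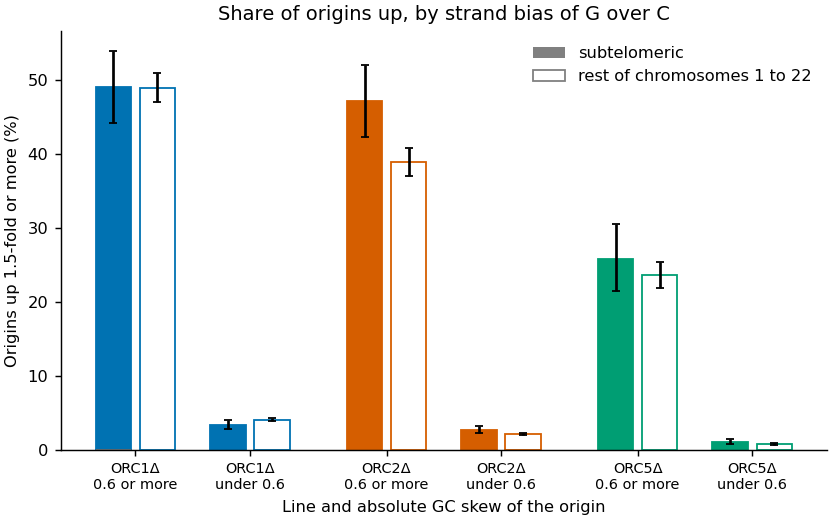
Share of origins up by at least 1.5-fold over WT (y axis, %) in each knockout line, for origins whose GC skew has a size of at least 0.6 or under 0.6 (x axis), with filled bars for subtelomeric origins, open bars for the rest of chromosomes 1 to 22, and 95% Wilson intervals. Skewed subtelomeric origins are up in 49.0%, 47.1%, and 25.7% of cases, and those under 0.6 in 3.37%, 2.66%, and 1.06%. Origins absent from the WT list, which entered a table through the knockout line, are included.

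Tandem repeats moved with skew, since 290 of the 400 skewed subtelomeric origins held one. Of the subtelomeric origins with a tandem repeat, 13.7% were up in ORC1Δ cells against 4.76% of those without. For ORC2Δ cells the shares were 12.6% and 3.76%, and for ORC5Δ cells 5.50% and 1.90%. This split was wider in the rest of chromosomes 1 to 22. The shares there were 22.7% and 5.15% in ORC1Δ, 18.2% and 2.79% in ORC2Δ, and 10.1% and 1.12% in ORC5Δ cells. Over all origins with a tandem repeat, 20.3%, 16.7%, and 8.95% were up in ORC1Δ, ORC2Δ, and ORC5Δ cells. Among the 290 with both a repeat and a skew of at least 0.6, 45.9% were up in ORC1Δ cells, and among the 110 with such a skew and no repeat, 57.3% were up. With a lower skew, 5.76% of the 1180 with a repeat and 2.03% of the 2118 without were up. Over all origins of the ORC1Δ table, these shares were 51.7%, 45.6%, 6.91%, and 3.66%, in the same order.

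Single origins were ranked by their smallest absolute log2 fold, with at least 100 reads of both lines together in each table. The WT counts of a given origin are shared between tables, so an unusually low or high WT count enters all 3 values. The highest was the 4p origin printed above, 14822 bp from PIGG, which adds a part to GPI anchors. It had 54 WT and 198 ORC1Δ reads, which is 1.81 on the log2 scale (1.37 to 2.28, an exact 95% interval for counting error only), and its log2 fold was 1.76 in ORC2Δ and 1.46 in ORC5Δ cells. The 17p origin, 2732 bp from TIMM22, a subunit of a mitochondrial import channel, had 81 WT and 273 ORC1Δ reads (1.69, 1.33 to 2.07), then 2.11 in ORC2Δ and 1.44 in ORC5Δ cells. The 1p origin had 33 WT and 129 ORC1Δ reads (1.91, 1.35 to 2.50), then 1.80 and 1.39. None of these was in the WT list of origins, and all were in the 3 knockout lists. They thus entered the tables through the lines in which they are high, and their folds are a description of origins picked for their size. Their GC skew was -0.79, -0.95, and 0.86.

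The lowest were an origin at chr5:258195-258806, in an intron of ENSG00000286001, one in an intron of WNT5B, a secreted WNT ligand, and one in an intron of ADARB2, a brain protein related to the RNA-editing deaminases. The 5p origin had 135 WT reads against 77 in ORC1Δ cells, with log2 folds of -0.87, -1.20, and -0.88 in the order ORC1Δ, ORC2Δ, ORC5Δ. The WNT5B origin had 128 WT reads against 49 in ORC1Δ cells (-1.45, -1.95 to -0.96), 88 in ORC2Δ (-0.77), and 100 in ORC5Δ cells (-0.67). The ADARB2 origin had 102 WT reads against 69, 70, and 74, with log2 folds of -0.62, -0.78, and -0.77. It lies at 10p, where the median of all origins was -0.24 in ORC5Δ cells, an end described below as shifted in that line. Unlike the origins that were up, their absolute GC skew was low, at 0.26, 0.22, and 0.06. All of them were in the WT list. The 5p and ADARB2 origins were in none of the knockout lists, and the WNT5B origin was missing from the ORC1Δ list only. The 5p and ADARB2 origins thus entered the tables through WT, in which they are high. These folds, too, are a description of origins picked for their size.

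Arm by arm, a few ends were shifted as a whole in 1 line. In ORC1Δ cells, the median log2 fold of the end was below that of the rest of its chromosome at 32 of 39 ends, but at 10 of 39 after GC correction. In ORC2Δ cells the numbers were 17 and 14, and in ORC5Δ cells 25 and 15. The difference from the rest of the chromosome was within 0.1 (log2) at 20 of 39 ends in ORC1Δ cells and at 31 after GC correction. In the ORC2Δ line these counts were 31 and 30, and in the ORC5Δ line 38 and 38. Without correction, the lowest ends relative to their chromosome were 7p (-0.77), 8q (-0.27), and 5q (-0.26) in ORC1Δ, 6p (-0.86), 13q (-0.68), and 3p (-0.27, 6 origins) in ORC2Δ, and 10p (-0.23), 3p (-0.07, 10 origins), and 11q (-0.07) in ORC5Δ cells. The highest were 18p (0.07, 13 origins), 1q (0.03), and 19q (0.02) in ORC1Δ, 2p (0.39), 3q (0.16), and 10q (0.15) in ORC2Δ, and 12q (0.05), 15q (0.03), and 10q (0.03) in ORC5Δ cells. At 8q in ORC1Δ cells, the end's own median was -0.09, while that of the rest of chromosome 8 was 0.18. At 5q these values were -0.17 and 0.09. After GC correction, the differences at 8q and 5q were 0.024 and -0.049.

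**Figure D3:**
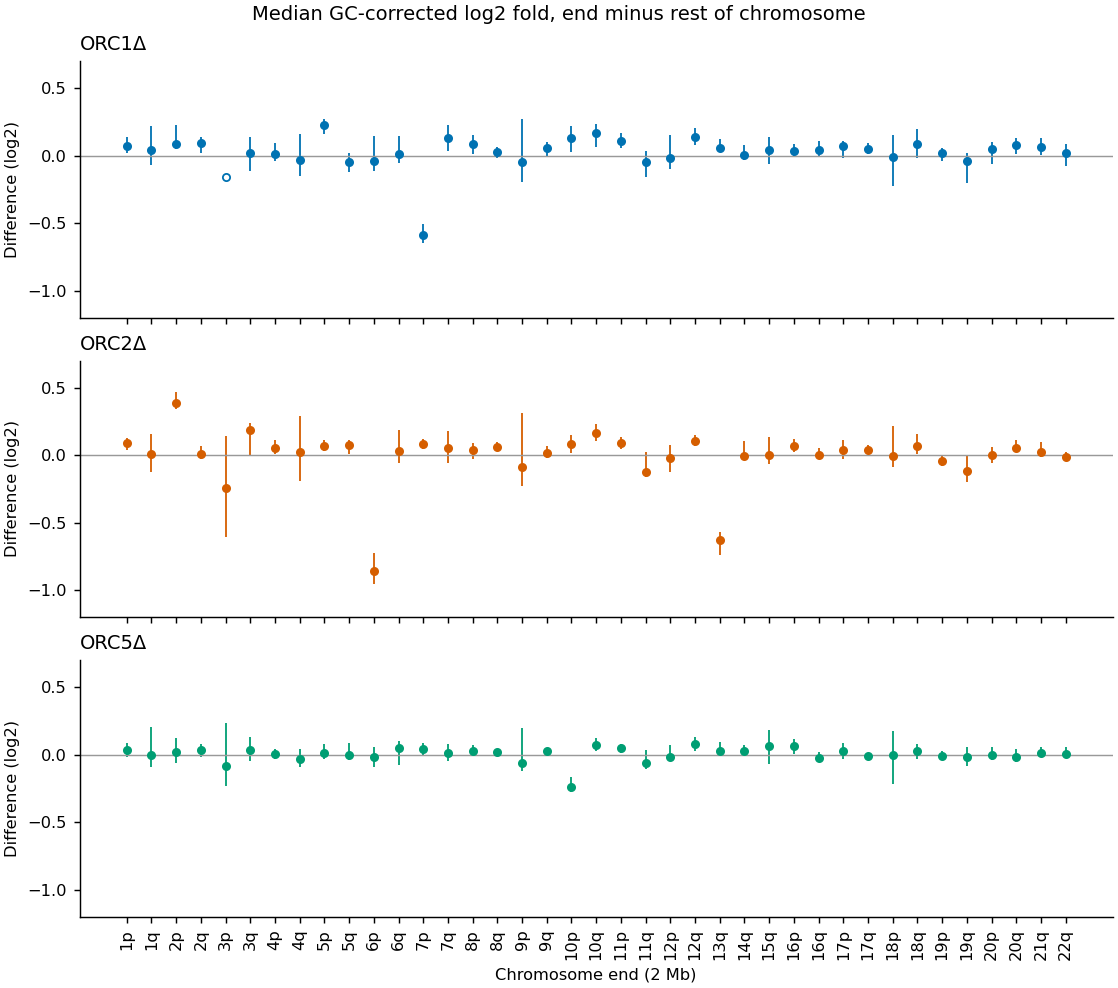
Difference in median GC-corrected log2 fold (y axis) between the outer 2 Mb and the rest of the same chromosome for each of the 39 ends (x axis), 1 panel per knockout line, with 95% order-statistic intervals of the end's median and an open point where there are too few origins for one. The ends 7p in ORC1Δ, 6p and 13q in ORC2Δ, and 10p in ORC5Δ cells lie at -0.59, -0.86, -0.63, and -0.24.

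At 7p, the median log2 fold of 156 origins was -0.78 in ORC1Δ cells (-0.88 to -0.65), and 98 of them were down, which is 32.6% of all subtelomeric origins down in this line. In ORC2Δ and ORC5Δ cells, the median at 7p was 0.01 and 0.00089. Within the outer 10 Mb, the place was sought that best divides the GC-corrected values into 2 levels, with at least 15 origins on each side. It lay 1665.73 to 1670.13 kb from the end, inside ELFN1, a synaptic membrane protein gene. The 134 origins outside this place had an uncorrected median of -0.86 (-0.94 to -0.78), with 125 below 0, and the 210 inside it had -0.15 (-0.20 to -0.09). The last origin outside, chr7:1665498-1665971, had 151 WT and 38 ORC1Δ reads, and the first inside, chr7:1669860-1670397, had 217 and 148. Fewer WT origins of this end had a counterpart in the ORC1Δ list, 93 of 152 or 61.2%.

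In ORC2Δ cells, 13q and 6p stood out. At 13q, the median of 108 origins was -0.73 (-0.84 to -0.67) and 73 were down, while it was -0.01 in ORC1Δ and -0.0088 in ORC5Δ cells. The division, found in the same way, lay 2923.48 to 2929.29 kb from the end, beyond the 2 Mb window. The uncorrected median was -0.74 in the 140 origins outside and -0.05 in the 77 inside. GAS6, a ligand of the TAM receptors, lies in this stretch, and 6 of its 7 origins were down in ORC2Δ cells. At 6p, the median of 44 origins was -0.87 (-0.98 to -0.78), 36 were down, and the origins from 2 to 10 Mb were as low, with -1.03. WT origins with a counterpart in the ORC2Δ list were 14 of 45 (31.1%) at 6p and 56 of 100 (56.0%) at 13q. In the other direction, 2p had a median of 0.39 (0.30 to 0.43) in ORC2Δ cells, with 21 of 89 origins up, and 0.38 from 2 to 10 Mb.

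Smaller shifts were seen at 10p in ORC5Δ cells, with a median of -0.24 (-0.31 to -0.20) and -0.30 from 2 to 10 Mb, and at 5p in ORC1Δ cells. The 5p shift was seen only after GC correction: the difference from the rest of the chromosome was then 0.22, against 0.0021 without it, where the end had a median of 0.09 and the origins from 2 to 10 Mb 0.18. Without the ends that held at least 20 origins and differed by at least 0.2 after GC correction, limits set after the values were seen (5p and 7p in ORC1Δ, 2p, 6p, and 13q in ORC2Δ cells), 200 of 3389 subtelomeric origins (5.90%) were down in ORC1Δ cells and 91 of 3692 (2.46%) in ORC2Δ cells. Over all origins, 3.95% were down in ORC1Δ and 3.58% in ORC2Δ cells, but these shares still include the shifted ends. The ends were left out for their own values and from the subtelomeric origins only, so no conclusion is drawn from this comparison.

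**Figure D4:**
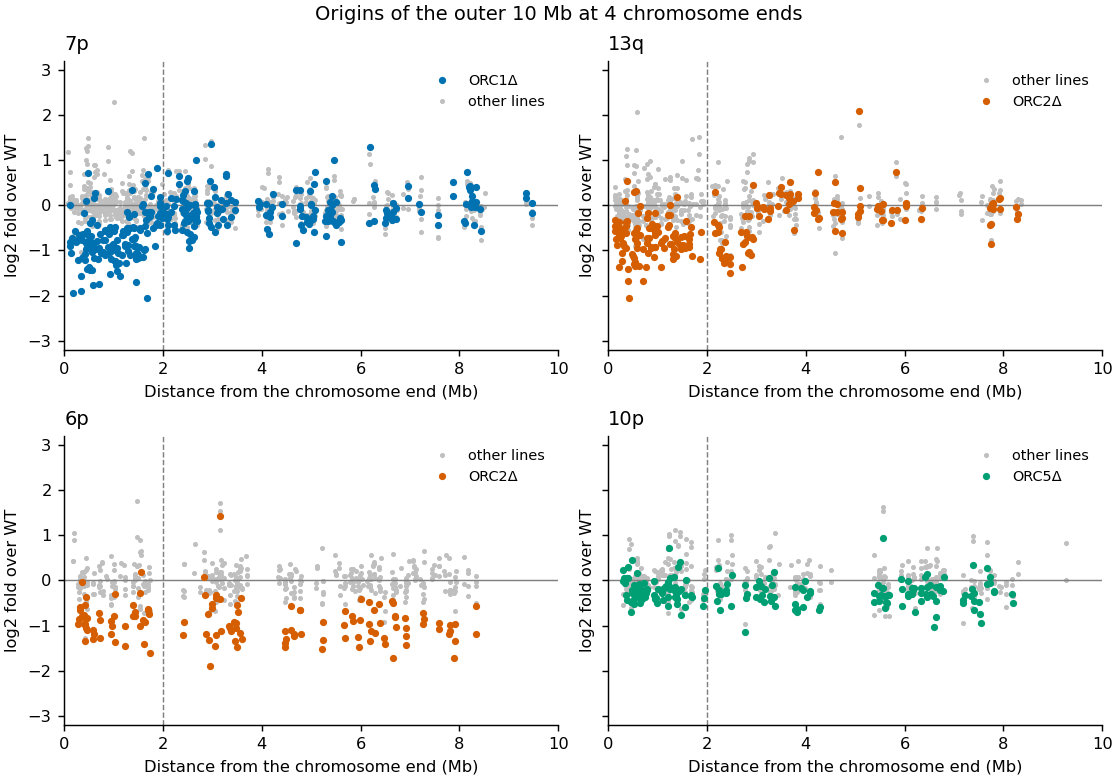
Log2 fold over WT (y axis) of each origin by its distance from the chromosome end in Mb (x axis) at 7p, 13q, 6p, and 10p, with the shifted line in colour, the other knockout lines in grey, and a dashed line at 2 Mb. The ORC1Δ origins of 7p return toward 0 between 1665.73 and 1670.13 kb and the ORC2Δ origins of 13q between 2923.48 and 2929.29 kb, while 6p and 10p stay low throughout.

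The strongest subtelomeric origins changed little. By WT reads per kb in the ORC1Δ table, the first was in an intron of PTPRN2 at 7q, a membrane protein of secretory granules, with 1910 WT and 2098 ORC1Δ reads (142 RPM per kb in WT cells). Its log2 folds were 0.08 (ORC1Δ), -0.11 (ORC2Δ), and -0.15 (ORC5Δ). It was followed by an origin in MED16 at 19p, a Mediator subunit, with -0.17, -0.17, and -0.15. The next overlapped KIFC2, a kinesin gene, and its neighbours at 8q, with -0.09, -0.12, and -0.15. Then came origins in HCN2 at 19p, a pacemaker channel, with -0.20, -0.13, and -0.15, and near SERPINF2 at 17p with 0.06, 0.16, and 0.05. Each of these values is short of 1.5-fold.

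Of 57 subtelomeric genes that were listed, 42 held a subtelomeric origin. In ORC1Δ cells, 43 of their 398 origins were up (10.8%) and 29 down (7.29%), beside 8.30% and 8.14% of all subtelomeric origins. For ORC2Δ cells the counts were 31 up (7.45%) and 19 down (4.57%) of 416, beside 7.22% and 5.09% of all subtelomeric origins. For ORC5Δ cells they were 11 up (2.72%) and 9 down (2.22%) of 405, beside 3.24% and 0.659%. PTPRN2 held the most, 78 in the ORC1Δ table, of which 13 were up and 9 down, with 13 and 3 of 79 in ORC2Δ and 7 and 4 of 74 in ORC5Δ cells. DLGAP2, a synaptic scaffold gene, held 51, with 9 up and 1 down in ORC1Δ cells, but 1 up and 2 down of 51 in ORC2Δ cells and none of 54 in either direction in ORC5Δ cells. After PTPRN2, the origins with the most WT reads overlapped DLGAP2 (1474 WT and 2048 ORC1Δ reads, log2 fold 0.41, then 0.19 in ORC2Δ and 0.07 in ORC5Δ cells), TBCD, a tubulin chaperone gene (-0.28 in ORC1Δ cells), and CACNA1H, a calcium channel gene (-0.24 in ORC1Δ cells). The TBCD origin, chr17:82750368-82752109, lies mostly upstream of the gene, which starts at 82752042. TERT, the catalytic subunit of telomerase, was looked at after the values were seen, and its origins differed in direction: in ORC1Δ cells 1 of 3 was up and 1 down, with a median log2 fold of 0.06, and in ORC2Δ cells 1 of 4 was up and 1 down, with a median of 0.05. In ORC5Δ cells none of the 3 passed 1.5-fold, and the median was -0.27.

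The last question was whether WT origins at the ends were still called in the knockout lines. Of 3130 subtelomeric WT origins, 78.9% (95% Wilson interval 77.4% to 80.3%) overlapped an origin of the ORC1Δ list by at least 1 bp, 88.0% of the ORC2Δ list, and 91.5% of the ORC5Δ list, against 70.2%, 77.4%, and 81.5% in the rest of chromosomes 1 to 22. All 3 knockout lines had a counterpart for 73.6% of them, against 58.9% of the rest, and no line for 4.22%, against 8.66%. The level of the origins moved with this result, and its part was not tested. Quartiles by WT RPM were taken over the origins of each table that overlapped the WT list, which are not the same units as the WT origins above. In the highest quartile, 97.0% of subtelomeric and 93.4% of the other origins had a counterpart in ORC1Δ cells. In the second quartile from below these shares were 59.1% and 68.1%, and in the lowest 35.5% and 39.6%, so that fewer subtelomeric origins had a counterpart at low levels. In the ORC2Δ and ORC5Δ lists, the subtelomeric share was above the other in every quartile, in the lowest with 56.6% against 52.4% and 67.3% against 60.1%. The highest quartile held 44.7% of these subtelomeric origins in the ORC1Δ table. Conversely, 19.3% of the subtelomeric origins of the ORC1Δ list were absent from the WT list, 23.4% in ORC2Δ, and 22.8% in ORC5Δ cells, against 37.6%, 38.8%, and 41.4% elsewhere.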

How the data were processed

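SNS-seq was done on HCT116 p53-/- WT, ORC1Δ, ORC2Δ, and ORC5Δ cells, with 2 biological replicates per line. Per the labels, the reads were processed with Trim Galore 0.6.4, Bowtie, MACS2, and bedtools on GRCh38 (hg38), and the authors kept peaks found in both replicates as origins. The authors deposited raw read counts per origin in 3 tables, replicates merged, and 4 origin lists whose columns give start and end only (other values, no score). The counting tool and the handling of duplicate or multiply placed reads are not given in the sources used here.

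Per the labels, nascent strands were enriched by size selection and lambda exonuclease digestion. Each line's counts were divided by its sum over all rows of that table, other contigs included (RPM), with no pseudocount and no filter on low counts. Calls used 1.5-fold. GC correction subtracted a running median over 1001 origins ranked by GC content. Intervals are 95%: order statistics for medians, Wilson for shares, Clopper-Pearson for single origins. The last cover counting error only, since PCR copies may be among the reads. Genes came from GENCODE release 44 (protein-coding, basic transcripts), and densities exclude assembly gaps. A WT origin had a counterpart at an overlap of 1 bp.

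The origins named were the 3 highest and 3 lowest by smallest absolute log2 fold over the 3 tables (same direction, at least 100 reads in each), the 5 with the most WT reads per kb, the origins with the most WT reads in the listed genes, and the 3 highest and lowest ends per table. The origins nearest to the chromosome ends, which the rule also covered, are not reported here. The rule, the lists, and the windows were chosen with earlier results of these data known. Alternatives covered scaling, window, read minimum, threshold, GC content, reference, and the overlap counted. The calculations were tested on simulated data. Analyses ran in Python 3.11.15 (samtools 1.23.1 and pysam 0.24.0 for sequence, scipy 1.17.1 for intervals, numba 0.67.0 for repeats, pandas 2.3.3 and numpy 2.4.6 for tables, matplotlib 3.10.9 for plots).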

Additional observations from a re-analysis of the deposited data

Results flagged for a closer look

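At 3 ends, the interval of the GC-corrected median lay above the rest of the chromosome in one knockout line and below it in another. At 7p, the difference was 0.083 in ORC2Δ and -0.59 in ORC1Δ cells. At 10p, it was -0.24 in ORC5Δ cells but 0.13 in ORC1Δ and 0.086 in ORC2Δ cells. At 13q, it was 0.058 in ORC1Δ and -0.63 in ORC2Δ cells. These differences between lines were not tested, since each line has 1 merged count per table, and the lines share the WT counts.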

How the results depend on the processing

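No paired analysis was possible because the tables merge the replicates of a line, and no replicate could be left out for the same reason. GC correction turned the median log2 fold of subtelomeric origins to 0.049 (ORC1Δ), 0.030 (ORC2Δ), and 0.012 (ORC5Δ), all negative without it. The difference from the rest of the chromosomes turned from -0.12 to 0.054 in ORC1Δ and from -0.012 to 0.013 in ORC5Δ cells, and in ORC2Δ cells, where it was positive in both, it moved from 0.013 to 0.035. It took the share down to 3.73% in ORC1Δ and 4.22% in ORC2Δ cells. Median-of-ratios size factors gave medians of -0.11 in ORC1Δ and 0.011 in ORC2Δ cells and 4.40% down in ORC2Δ cells.

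With a 1 Mb window, ORC1Δ cells had a median of -0.11, a difference of -0.10, and 7.15% up, ORC5Δ cells had 2.73% up, and the density ratio was 3.69 in WT and 3.23, 3.36, and 3.18 in the knockout lines. With a 5 Mb window, the ORC1Δ median was -0.11, the share down was 6.76%, 4.39%, and 1.19% in ORC1Δ, ORC2Δ, and ORC5Δ cells, counterparts were found for 76.8%, 85.2%, and 88.6%, and the density ratio was 3.66 in WT and 3.17, 3.30, and 3.09 in the knockout lines. With 200 or more reads, the ORC1Δ difference was -0.093, with 7.10% up and 5.46% down, ORC2Δ cells had 6.26% up and 3.23% down, and ORC5Δ cells had 0.428% down. At 2-fold, 3.03%, 3.00025%, and 0.659% were up and 1.68%, 1.25%, and 0.0760% down. Without 2p, 5p, 6p, 8p, and 8q, the ORC1Δ median and difference were both -0.15, and against the neighbouring 2 to 10 Mb the difference was -0.064. Without the ends shifted as a whole, an alternative chosen after seeing the data, 5.90% were down in ORC1Δ and 2.46% in ORC2Δ cells. In all, 109 alternative values stayed within the interval of the reported one, 42 moved beyond it, and 6 changed sign. The cause was not tested. Origins with few reads limit single values: at 33 WT reads, the interval of the 1p origin's log2 fold ran from 1.35 to 2.50.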
